A study of Homo sapiens with 18 samples.

Results

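The matrix metalloproteinases MMP1, MMP2, MMP3, MMP9, MMP10, MMP13 and MMP14 and the tissue inhibitors TIMP1, TIMP2 and TIMP3 were followed across every group of the series. They are a list of 10 genes named by symbol, out of 35579 annotated genes in the tables. The list was set with earlier results of these data known. Polyadenylated RNA was sequenced from U2OS, a human osteosarcoma line, in 18 libraries of 6 groups with 3 libraries each. All groups carried an integrated construct with the fluorescent protein mCherry, so none was unmodified U2OS. Untreated cells carried mCherry fused to EWS-FLI1, to EWS(YS37)-FLI1 or to EWS-FLI1mut, or mCherry alone as the control. EWS-FLI1, the driver of most Ewing sarcomas, joins the amino-terminal part of EWS to the DNA-binding ETS domain of FLI1. The labels do not give the nature of the mut change, a vehicle for untreated cells, or whether each line was derived from a single cell or kept as a pool. The other groups were mCherry-EWS-FLI1 cells kept in 7.5 µM LY2835219 (abemaciclib, an inhibitor of the kinases CDK4 and CDK6) for 6 h or for 24 h. Titles, sample characteristics and series design give these times, while a protocol field of the same labels lists different ones. The labels name no untreated libraries matched to 6 h or 24 h, so the drug and the time in culture cannot be told apart. Each title names its library a biological replicate. Nothing says that the libraries of a group came from independently made lines, so p-values measure the spread between these libraries, which may be partly technical.

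Metalloproteinases are zinc-dependent enzymes that are made as inactive precursors and cut collagens, gelatins, laminins, fibronectin and many surface proteins once activated. Collagenases (MMP1, MMP13) open the fibrillar collagens, gelatinases (MMP2, MMP9) degrade the unfolded chains and basement membrane collagen, stromelysins (MMP3, MMP10) cut proteoglycans and activate other MMP precursors, and MMP14 sits in the cell membrane. TIMPs bind the active enzymes, and TIMP2 also bridges MMP14 to the MMP2 precursor so that MMP2 is activated at the cell surface. In bone, MMP13 and MMP14 take part in matrix remodelling, and osteosarcoma cells commonly express MMP2.

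The libraries held between 16261034 and 20270637 estimated counts. FLI1 ranged from 232 to 265 CPM in EWS-FLI1 cells, 987 to 1069 CPM in EWS(YS37)-FLI1 cells and 626 to 664 CPM in EWS-FLI1mut cells, against 0.0534 to 1.16 CPM in mCherry cells. CPM here are estimated counts scaled to library size. The fusions were thus not at equal FLI1 levels, and the construct and its level cannot be told apart. Of 6 bone and mesenchyme markers 5 exceeded 1 TPM in every group and the list summed to 3592 to 5621 TPM per library, against 14.9 to 31.1 TPM for 4 epithelial, 2.94 to 19.6 TPM for 5 blood and macrophage and 3.12 to 10.8 TPM for 4 endothelial markers. As the samples are bulk RNA, fewer cells expressing a gene and less of its RNA per cell cannot be told apart.

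TIMP1 RNA was the most abundant of the 10 in every group. Per transcript length (TPM), it averaged 1448 ± 199 in EWS-FLI1 cells, 653 ± 106 in EWS(YS37)-FLI1 cells, 1615 ± 68.6 in EWS-FLI1mut cells and 862 ± 95.3 in mCherry cells (SD, n = 3 each). MMP2 came next with 291 ± 8.54 TPM in EWS-FLI1 cells and 192 ± 12.4 TPM in mCherry cells, and its libraries lay apart from those of the next gene below in both. In EWS(YS37)-FLI1 cells MMP2 averaged 99.5 ± 12.3 TPM and stood below TIMP2 at 153 ± 9.61 TPM and MMP14 at 136 ± 20.7 TPM, both of which overlapped each other. TIMP2 and MMP14 also overlapped in EWS-FLI1 cells, at 195.8 ± 14.2 and 171 ± 20.9 TPM. MMP9 and TIMP3 formed a middle tier, with 37.7 ± 11.7 and 26.9 ± 0.648 TPM in EWS-FLI1 cells, where they overlapped. MMP13 lay below them at 10.2 ± 1.33 TPM, and MMP3 and MMP10 were under 1 TPM, at 0.483 ± 0.191 and 0.465 ± 0.267 TPM, and overlapped each other. MMP3 has no usable TPM in EWS-FLI1mut cells, because short transcripts of the gene drew a share of its reads there and the libraries read 2.19, 6.88 and 1.10 TPM. MMP1, an interstitial collagenase, was close to absent: its estimated counts ran from 0 to 6 per library and summed over 3 libraries to 1 in untreated EWS-FLI1 cells, 1 at 6 h, 10 at 24 h, 7 in EWS(YS37)-FLI1, 0 in EWS-FLI1mut and 5 in mCherry cells. It did not pass the filter on low counts and was not tested. The 9 other genes passed. MMP10 passed with 6 libraries over the minimum of 0.541 CPM, of which 3 were the 6 h libraries.

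MMP10, MMP1, MMP3 and MMP13 lie in a run of 9 MMP genes on the minus strand of chromosome 11 that spans 435 kb (hg38). MMP10 (ENSG00000166670) occupies chr11:102770503-102780628, MMP1 (ENSG00000196611) chr11:102789920-102798160, MMP3 (ENSG00000149968) chr11:102835801-102843803 and MMP13 (ENSG00000137745) chr11:102942995-102955734. The remaining genes are dispersed, with MMP2 (ENSG00000087245) at chr16:55389700-55506691, MMP9 (ENSG00000100985) at chr20:46008908-46016561 and MMP14 (ENSG00000157227) at chr14:22836557-22849027. TIMP1 (ENSG00000102265) lies at chrX:47582313-47586789, TIMP2 (ENSG00000035862) at chr17:78852977-78925387 on the minus strand, and TIMP3 (ENSG00000100234) at chr22:32801701-32863043. MMP2, MMP9, MMP14, TIMP1 and TIMP3 are on the plus strand.

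Many MMP promoters are known to carry binding letters for AP-1, the dimer of FOS and JUN family proteins, and for ETS factors, which bind GGAA. RefSeq promoter sequences (GRCh38.p14) matched 4 of the 10 genes, MMP10, MMP14, TIMP1 and TIMP3, and the 250 bases before each start site were searched on both strands. The MMP10, TIMP1 and MMP14 sequences are shown because they hold AP-1 letters or a repeated ETS core.
MMP10: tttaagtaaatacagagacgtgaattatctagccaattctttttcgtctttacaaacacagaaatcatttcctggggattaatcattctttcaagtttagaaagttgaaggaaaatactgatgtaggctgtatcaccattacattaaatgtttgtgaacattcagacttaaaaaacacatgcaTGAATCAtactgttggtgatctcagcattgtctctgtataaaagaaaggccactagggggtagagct
TIMP1: tggtgggtggaTGAGTAAtgcatccaggaa
MMP14: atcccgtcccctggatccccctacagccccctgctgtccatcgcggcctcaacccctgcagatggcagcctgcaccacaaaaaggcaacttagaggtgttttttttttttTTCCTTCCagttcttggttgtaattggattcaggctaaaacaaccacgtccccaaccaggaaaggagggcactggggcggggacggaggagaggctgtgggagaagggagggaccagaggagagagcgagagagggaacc
The MMP10 window is the minus strand of chr11:102780629-102780878, and its capitals mark TGAATCA, a match to the AP-1 letters TGANTCA that begins 67 bases before the start. The TIMP1 stretch of 30 bases is chrX:47582324-47582353 on the plus strand, and its capitals mark TGAGTAA, the AP-1 variant known from the TIMP1 gene, which begins 101 bases before the RefSeq start and falls inside the first exon of GENCODE 29. The MMP14 window is chr14:22836335-22836584 on the plus strand, and its capitals mark TTCCTTCC, the ETS repeat GGAAGGAA on the opposite strand, which begins 140 bases before the start and includes the single ETS core GGAA. Among 35116 promoters with a window of that length, 6.57% held TGANTCA, 2.21% TGAGTAA and 3.06% GGAAGGAA, while 92.7% held GGAA. GGAAGGAA also begins 248 bases before the TIMP1 start, outside the stretch shown. The TIMP3 window held none of the AP-1 letters and no repeated ETS core. Of these 4 genes MMP10, TIMP1 and TIMP3 were called higher at 6 h of LY2835219 and MMP14 lower. Of all genes 31.6% were higher and 33.3% lower there. TIMP1, TIMP3 and MMP14 lost their calls under some of the other settings tried. The AP-1 variant was searched for because it was already known from TIMP1, so its match in that gene was preset. Its share of all promoters therefore does not measure how unusual the TIMP1 match is. The promoter results are matches of letters, and no binding was measured.

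Untreated EWS-FLI1 cells had more RNA of both gelatinases, of the collagenase MMP13 and of all 3 inhibitors than mCherry cells. Of the 9 genes tested, 6 were higher and 0 lower at an adjusted p under 0.05 (edgeR), where 11.1% of all 16786 tested genes were higher, 9.95% lower and 21.1% either. The median log2 fold change of the 9 genes was 0.65, beside -0.02 over all genes. At an unadjusted p under 0.05 (edgeR) 7 were higher and 1 (MMP3) lower, and DESeq2 gave the same counts, 7 and 1. The libraries of both groups did not overlap for 7 of the 9 genes, as for 35.3% of all genes.

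MMP2 measured 676, 748 and 744 CPM in EWS-FLI1 libraries, against 444, 508 and 522 CPM in mCherry libraries. Every EWS-FLI1 library lay above every mCherry library, a 1.47-fold difference (log2 fold change 0.56 ± 0.09 SE, edgeR adjusted p = 8.03e-05). MMP9 measured 65.0, 39.2 and 76.2 CPM in EWS-FLI1 libraries, against 10.6, 12.7 and 14.0 CPM in mCherry libraries. The EWS-FLI1 libraries differed widely among themselves, but the lowest lay well above every control library, and the fitted difference was 4.83-fold (2.27 ± 0.24, edgeR adjusted p = 4.02e-07). MMP13 measured 14.3, 14.2 and 14.9 CPM in EWS-FLI1 libraries, against 4.16, 9.32 and 7.42 CPM in mCherry libraries, a 2.08-fold difference (1.06 ± 0.19, edgeR adjusted p = 0.000327). MMP14, which activates the MMP2 precursor, was not called (0.21 ± 0.08, edgeR adjusted p = 0.0538), although its libraries, at 171, 201 and 171 CPM in EWS-FLI1 cells and 150, 160 and 159 CPM in mCherry cells, did not overlap. It was called with RLE scaling, without the filter, in DESeq2, with only the 6 libraries compared, and without EWS-FLI1 replicate 1 (edgeR adjusted p = 0.0473) or replicate 3 (0.0310). MMP3 averaged 0.574 ± 0.221 CPM in EWS-FLI1 cells and 1.16 ± 0.499 CPM in mCherry cells, with overlapping libraries (-1.01 ± 0.40, edgeR adjusted p = 0.0740). MMP10 had 10, 11 and 4 estimated counts in EWS-FLI1 libraries, against 1, 0 and 6 in mCherry libraries, and was not called (edgeR adjusted p = 0.155). Without mCherry replicate 3 both were called, MMP3 lower (-1.29 ± 0.39, edgeR adjusted p = 0.0262) and MMP10 higher (3.68 ± 1.16, edgeR adjusted p = 0.0329).

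The inhibitors rose with these proteases. TIMP1, a secreted inhibitor that binds the MMP9 precursor well, measured 510, 481 and 647 CPM in EWS-FLI1 libraries, against 286, 348 and 373 CPM in mCherry libraries. The groups did not overlap, and TIMP1 was 1.63-fold higher (0.70 ± 0.11, edgeR adjusted p = 7.06e-05). TIMP2 was 1.28-fold higher, at 491 ± 22.2 CPM in EWS-FLI1 cells and 382 ± 9.79 CPM in mCherry cells (0.36 ± 0.07, edgeR adjusted p = 0.000851). TIMP3, which stays bound to the matrix and also inhibits ADAM proteases, measured 89.9, 91.6 and 90.4 CPM in EWS-FLI1 libraries, against 64.1, 56.0 and 53.2 CPM in mCherry libraries. It was 1.57-fold higher (0.65 ± 0.08, edgeR adjusted p = 1.55e-06), and the EWS-FLI1 libraries were close to each other. The 5 blood and macrophage markers, a cell type that also makes MMP9, summed to 2.94 to 4.92 TPM in EWS-FLI1 libraries, against 5.46 to 8.84 TPM in mCherry libraries. In each group 1 of these markers exceeded 1 TPM, and CD68 alone was called, lower in EWS-FLI1 cells (edgeR). The part of such cells in the MMP9 difference was not tested.

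**Figure D1:**
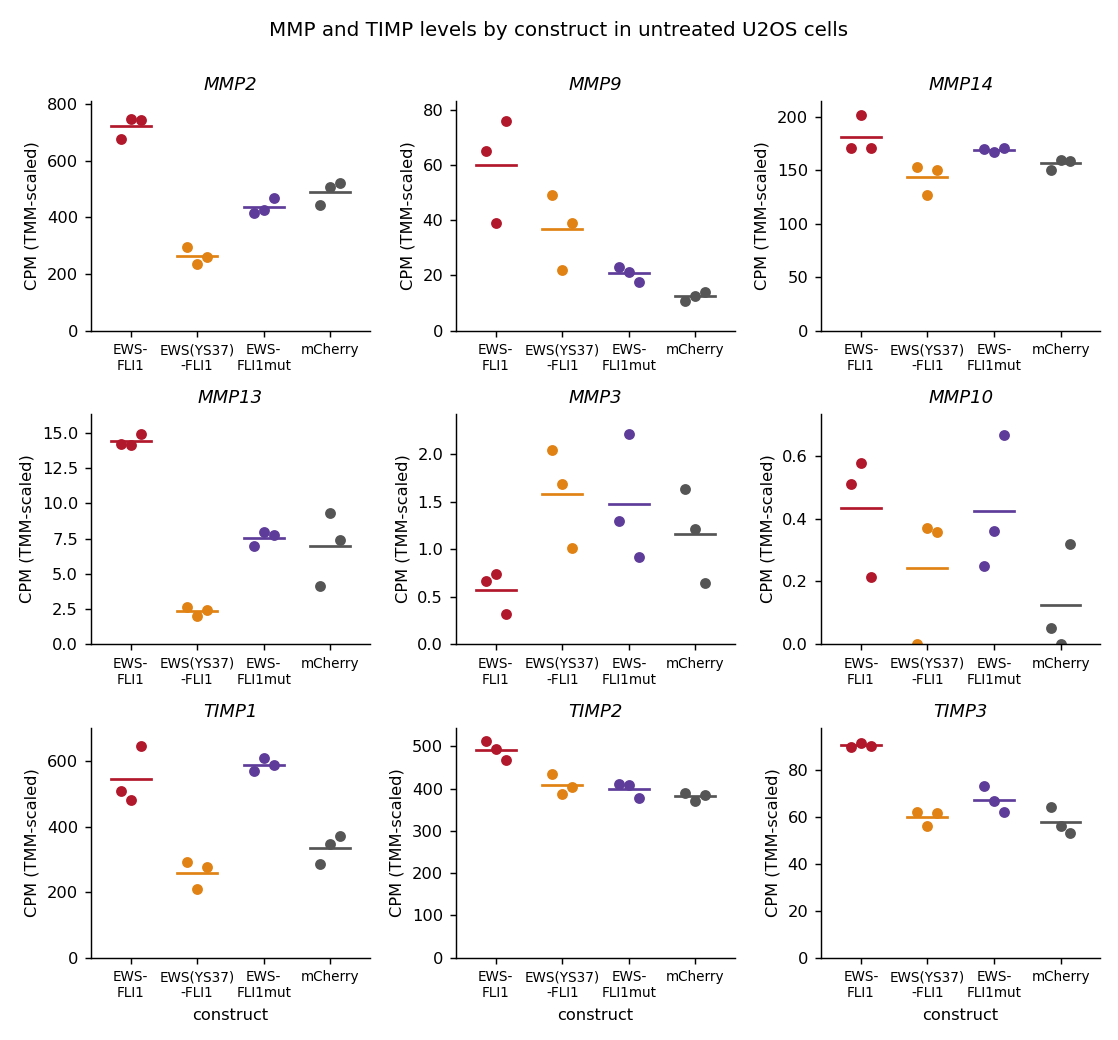
TMM-scaled CPM of the 9 tested genes (vertical axes, each from 0) in untreated cells of the 4 constructs, points are libraries and lines the means of 3. MMP2, MMP13, TIMP2 and TIMP3 are highest in every EWS-FLI1 library, TIMP1 is high in EWS-FLI1 and EWS-FLI1mut cells, and MMP2 and MMP13 are lowest in EWS(YS37)-FLI1 cells.

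EWS(YS37)-FLI1 cells shared the higher MMP9 with EWS-FLI1 cells but had less MMP2 and MMP13 RNA than the mCherry control. The count was 1 gene higher and 3 lower of 9 (edgeR), where 11.5% of all genes were higher, 10.2% lower and 21.7% either. The libraries did not overlap for 3 of the 9 genes, as for 35.7% of all genes. The median log2 fold change was 0.05 for the 9 genes and -0.00 for all genes. MMP9 measured 49.3, 22.0 and 39.0 CPM in EWS(YS37)-FLI1 libraries, against 10.6, 12.7 and 14.0 CPM in mCherry libraries, 2.95-fold higher (1.56 ± 0.25, edgeR adjusted p = 4.99e-05). MMP2 measured 297, 234 and 261 CPM in EWS(YS37)-FLI1 libraries, against 444, 508 and 522 CPM in mCherry libraries. All 3 lay below the control, and MMP2 was 1.86-fold lower (-0.90 ± 0.09, edgeR adjusted p = 1.10e-07). MMP13 measured 2.61, 2.00 and 2.39 CPM in EWS(YS37)-FLI1 libraries, against 4.16, 9.32 and 7.42 CPM in mCherry libraries, 2.97-fold lower without overlap (-1.57 ± 0.22, edgeR adjusted p = 1.21e-05). TIMP1 was called lower (-0.37 ± 0.11, edgeR adjusted p = 0.0192), but its libraries, at 293, 211 and 275 CPM in EWS(YS37)-FLI1 cells and 286, 348 and 373 CPM in mCherry cells, overlapped. That call was lost without EWS(YS37)-FLI1 replicate 2 (edgeR adjusted p = 0.120), without mCherry replicate 2 (0.0664) or 3 (0.107), and with length offsets. TIMP2, at 409 ± 24.1 CPM in EWS(YS37)-FLI1 cells and 382 ± 9.79 CPM in mCherry cells, and TIMP3, at 60.0 ± 3.27 and 57.8 ± 5.66 CPM, were not called, nor were MMP3, MMP10 and MMP14.

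In EWS-FLI1mut cells TIMP1 was the member called against mCherry, and the proteases were not. The count was 1 higher and 0 lower of 9 (edgeR), where 3.53% of all genes were higher, 3.62% lower and 7.15% either. At an unadjusted p under 0.05 (edgeR) 3 were higher and 0 lower, and DESeq2 called 1 and 0. The median log2 fold change was 0.22 for the 9 genes and -0.00 for all genes. TIMP1 measured 569, 610 and 588 CPM in EWS-FLI1mut libraries, against 286, 348 and 373 CPM in mCherry libraries, 1.76-fold higher (0.81 ± 0.11, edgeR adjusted p = 6.69e-05). MMP9 measured 23.2, 21.1 and 17.8 CPM in EWS-FLI1mut libraries, against 10.6, 12.7 and 14.0 CPM in mCherry libraries. Those libraries did not overlap, which held for 3 of the 9 genes and 25.9% of all genes, but MMP9 missed the threshold (0.74 ± 0.26, edgeR adjusted p = 0.0862) and passed it without the filter or with only the 6 libraries. TIMP3, at 67.3 ± 5.63 CPM in EWS-FLI1mut cells and 57.8 ± 5.66 CPM in mCherry cells, missed it as well (0.22 ± 0.08, edgeR adjusted p = 0.0862) and passed it without mCherry replicate 1 (0.0259). MMP2, at 436 ± 27.0 CPM in EWS-FLI1mut cells and 491 ± 41.2 CPM in mCherry cells, and MMP13, at 7.55 ± 0.531 and 6.97 ± 2.61 CPM, had overlapping libraries and were not called.

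The fusions were also compared with each other, which tests the differences between them directly (these comparisons and those against mCherry share libraries). Against EWS-FLI1mut cells, EWS-FLI1 cells had 5 of the 9 genes higher and 1 lower (edgeR), where 8.78% of all genes were higher, 7.51% lower and 16.3% either. The libraries did not overlap for 7 of the 9, and for 34.3% of all genes. MMP2 was 1.66-fold higher (0.73 ± 0.09), MMP9 2.90-fold (1.54 ± 0.22), MMP13 1.91-fold (0.94 ± 0.19), TIMP3 1.35-fold (0.43 ± 0.07) and TIMP2 1.23-fold (0.30 ± 0.07), each without overlap and with edgeR adjusted p up to 0.00533. MMP13 and TIMP2 were not called by limma on log2(TPM + 0.1). TIMP1 measured 546 ± 88.7 CPM in EWS-FLI1 cells and 589 ± 20.4 CPM in EWS-FLI1mut cells, and was not called (-0.11 ± 0.11, edgeR adjusted p = 0.562). MMP3 was lower, at 0.664, 0.735 and 0.322 CPM in EWS-FLI1 libraries, against 1.30, 2.22 and 0.921 CPM in EWS-FLI1mut libraries (-1.35 ± 0.38, edgeR adjusted p = 0.0158). With 6 to 14 and 18 to 43 estimated counts per library that call rested on few reads, and it was lost without EWS-FLI1 replicate 3 (edgeR adjusted p = 0.0871), without EWS-FLI1mut replicate 2 (0.136) and with only the 6 libraries compared.

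Against EWS(YS37)-FLI1 cells, EWS-FLI1 cells had 7 of the 9 genes higher and 1 lower (edgeR), where 14.8% of all genes were higher, 16.3% lower and 31.1% either. Here too 7 of the 9 did not overlap, against 42.9% of all genes. MMP13 differed most, 14.5 ± 0.416 CPM in EWS-FLI1 cells and 2.34 ± 0.311 CPM in EWS(YS37)-FLI1 cells, a 6.18-fold difference (2.63 ± 0.21, edgeR adjusted p = 2.26e-09). MMP2 was 2.74-fold higher (1.45 ± 0.09, edgeR adjusted p = 3.51e-11), TIMP1 2.10-fold (1.07 ± 0.11) and TIMP3 1.51-fold (0.60 ± 0.08). MMP14 (0.34 ± 0.08) and TIMP2 (0.26 ± 0.07) were higher by smaller amounts, and MMP14 lost its call with length offsets. MMP9 was called higher (0.71 ± 0.21, edgeR adjusted p = 0.0127) although the libraries overlapped, and lost the call without EWS-FLI1 replicate 3 (0.0870) or EWS(YS37)-FLI1 replicate 2 (0.0773). MMP3 was lower, at 0.574 ± 0.221 CPM in EWS-FLI1 cells and 1.58 ± 0.522 CPM in EWS(YS37)-FLI1 cells (-1.44 ± 0.38, edgeR adjusted p = 0.00496), a call that was lost on the TPM scale and with length offsets.

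Between the changed fusions, EWS(YS37)-FLI1 cells had 1 of the 9 genes higher and 4 lower than EWS-FLI1mut cells (edgeR), where 14.5% of all genes were higher, 12.7% lower and 27.2% either. The libraries did not overlap for 4 of the 9 genes and for 41.7% of all genes. TIMP1 was 2.27-fold lower, at 260 ± 43.2 CPM in EWS(YS37)-FLI1 cells and 589 ± 20.4 CPM in EWS-FLI1mut cells (-1.18 ± 0.11, edgeR adjusted p = 3.67e-08). MMP13 was 3.23-fold lower (-1.69 ± 0.22) and MMP2 1.65-fold lower (-0.72 ± 0.09), both without overlap. MMP14 was 1.18-fold lower (-0.24 ± 0.08, edgeR adjusted p = 0.0243), and leaving out any EWS-FLI1mut library or EWS(YS37)-FLI1 replicate 2 ended that call (0.0517 to 0.166). MMP9 was called higher (0.82 ± 0.23, edgeR adjusted p = 0.00899) with overlapping libraries, and was not without EWS(YS37)-FLI1 replicate 1 (0.0847) or on the TPM scale.

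**Figure D2:**
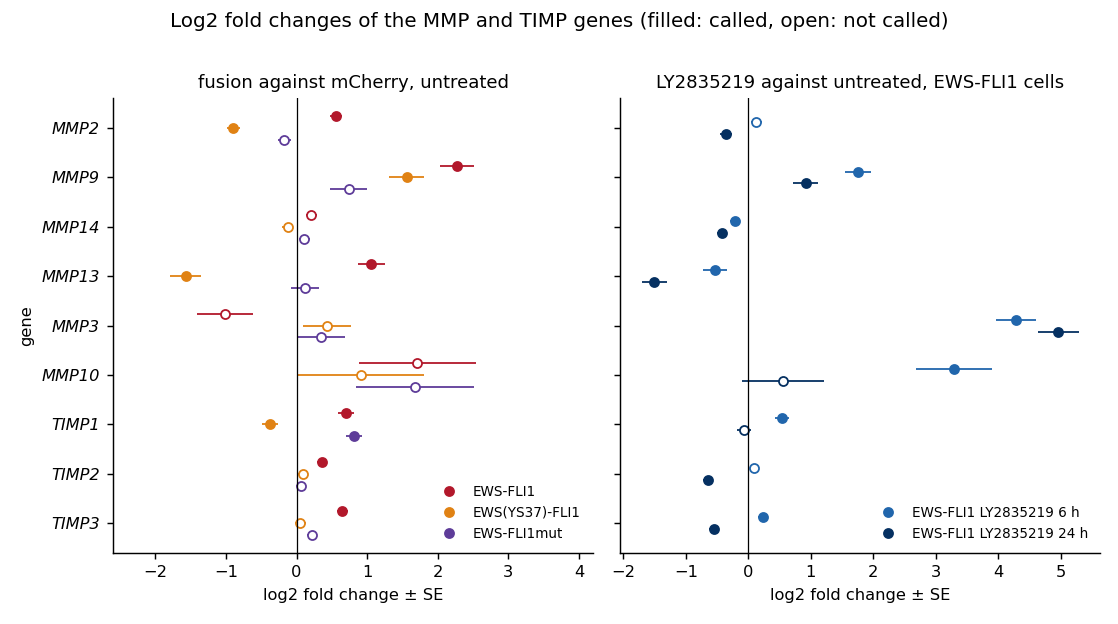
Log2 fold changes with standard errors (horizontal axes) of the 9 tested genes, for the 3 fusions against mCherry on the left and for 6 h and 24 h of LY2835219 against untreated EWS-FLI1 cells on the right. Filled points passed an adjusted p under 0.05 (edgeR). MMP2, MMP13 and TIMP1 stand on opposite sides of 0 for EWS-FLI1 and EWS(YS37)-FLI1, and MMP3 and MMP10 reach values over 3 at 6 h.

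At 6 h of LY2835219 the stromelysins MMP3 and MMP10 and the gelatinase MMP9 rose in EWS-FLI1 cells, TIMP1 rose less, and MMP13 fell. The count was 5 higher and 2 lower of 9 (edgeR). A large part of the transcriptome moved, since 31.6% of all genes were higher, 33.3% lower and 64.9% either, so the share of members called is close to that background and the sizes carry the description. The same held for libraries without overlap, 7 of the 9 genes and 68.3% of all genes. The median log2 fold change was 0.23 for the 9 genes and -0.02 for all genes. Without scaling factors the median of all genes was -0.27, so changes are relative to the TMM scaling. The mitochondrial share of counts was 6.03% to 6.31% in 6 h libraries and 5.87% to 6.59% in 24 h libraries, against 4.55% to 5.10% in untreated EWS-FLI1 libraries. FLI1 itself was 388 to 430 CPM at 6 h and 225 to 244 CPM at 24 h. The 5 blood and macrophage markers summed to 7.91 to 9.66 TPM at 6 h and 17.7 to 19.6 TPM at 24 h, against 2.94 to 4.92 TPM untreated. Of these markers only CD68, a lysosomal protein, was over 1 TPM, and LYZ had 0 counts in every untreated EWS-FLI1 library. The part of these 3 measures in the results was not tested.

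MMP3 measured 10.2, 13.1 and 10.7 CPM in 6 h libraries, against 0.664, 0.735 and 0.322 CPM in untreated EWS-FLI1 libraries. In estimated counts that was 166, 208 and 173 at 6 h, against 13, 14 and 6 untreated. Every treated library stood far above every untreated one, a 19.5-fold difference (4.28 ± 0.33, edgeR adjusted p = 5.17e-11). MMP10 measured 3.91, 4.17 and 4.90 CPM in 6 h libraries, against 0.511, 0.577 and 0.215 CPM in untreated libraries, from 64, 66 and 79 and from 10, 11 and 4 estimated counts. It was 9.80-fold higher without overlap (3.29 ± 0.61, edgeR adjusted p = 5.37e-05). MMP9 measured 213, 230 and 167 CPM in 6 h libraries, against 65.0, 39.2 and 76.2 CPM in untreated libraries. Every treated library lay far above every untreated one, and the fitted difference was 3.38-fold (1.76 ± 0.20, edgeR adjusted p = 6.26e-08). On the log2(TPM + 1) scale, which compresses low values, the differences were 2.49 for MMP3 and 1.55 for MMP10, and both were still called (limma).

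MMP13 measured 10.0, 11.2 and 8.56 CPM in 6 h libraries, against 14.3, 14.2 and 14.9 CPM in untreated libraries. It was 1.45-fold lower (-0.54 ± 0.19, edgeR adjusted p = 0.0160), and the call was lost without 6 h replicate 3 (0.0718). MMP14 measured 156 ± 7.31 CPM at 6 h and 181 ± 17.6 CPM untreated, 1.16-fold lower (-0.21 ± 0.08, edgeR adjusted p = 0.0177), and that call was lost without EWS-FLI1 replicate 2 (0.105), without 6 h replicate 3 (0.0696) and with length offsets. MMP2 was not called, at 853, 822 and 695 CPM in 6 h libraries and 676, 748 and 744 CPM in untreated libraries, which overlapped (0.13 ± 0.09, edgeR adjusted p = 0.211). Its direction depended on the scaling: it was -0.12 without scaling factors, and limma on log2(TPM + 1) called it lower (-0.26 ± 0.10, adjusted p = 0.0306).

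TIMP1 measured 841, 855 and 689 CPM in 6 h libraries, against 510, 481 and 647 CPM in untreated libraries. The groups did not overlap, and TIMP1 was 1.46-fold higher (0.54 ± 0.11, edgeR adjusted p = 0.000156), but on the log2(TPM + 1) scale the difference was 0.18 ± 0.12 and was not called. TIMP3 was 1.18-fold higher (0.23 ± 0.07, edgeR adjusted p = 0.00801), but it was -0.01 without scaling factors and -0.14 on the log2(TPM + 1) scale, where it was not called. TIMP2, at 525 ± 41.4 CPM at 6 h and 491 ± 22.2 CPM untreated, was not called (0.10 ± 0.07), and limma on log2(TPM + 1) called it lower (-0.28 ± 0.08).

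By 24 h of LY2835219 MMP3 and MMP9 were still above untreated cells, MMP10 was back near its untreated level, and MMP2, MMP13, MMP14, TIMP2 and TIMP3 were below it. The count was 2 higher and 5 lower of 9 (edgeR), where 23.3% of all genes were higher, 24.6% lower and 48% either. The libraries of 7 of the 9 genes did not overlap, as for 54.7% of all genes. The median log2 fold change was -0.36 for the 9 genes and 0.03 for all genes. MMP3 measured 19.3, 17.1 and 18.2 CPM in 24 h libraries, against 0.664, 0.735 and 0.322 CPM in untreated libraries, 31.2-fold higher (4.96 ± 0.32, edgeR adjusted p = 9.72e-12). MMP9 measured 123, 123 and 94.9 CPM in 24 h libraries, against 65.0, 39.2 and 76.2 CPM in untreated libraries, 1.89-fold higher without overlap (0.92 ± 0.20, edgeR adjusted p = 0.000608). MMP10 had 8, 19 and 9 estimated counts at 24 h, against 10, 11 and 4 untreated, and was not called (0.55 ± 0.66, edgeR adjusted p = 0.517).

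MMP13 measured 4.72, 5.06 and 5.44 CPM in 24 h libraries, against 14.3, 14.2 and 14.9 CPM in untreated libraries. It was 2.84-fold lower (-1.51 ± 0.20, edgeR adjusted p = 9.65e-07), which put it within the range of the mCherry cells (4.16 to 9.32 CPM). MMP2, at 585, 613 and 491 CPM in 24 h libraries and 676, 748 and 744 CPM in untreated libraries, was 1.28-fold lower (-0.36 ± 0.09, edgeR adjusted p = 0.00179), and MMP14 was 1.34-fold lower (-0.43 ± 0.08, edgeR adjusted p = 6.95e-05). TIMP2 measured 311, 352 and 274 CPM in 24 h libraries, against 512, 494 and 468 CPM in untreated libraries, 1.57-fold lower without overlap (-0.65 ± 0.07, edgeR adjusted p = 8.10e-08). TIMP3 was 1.46-fold lower, at 62.0 ± 4.97 CPM at 24 h and 90.7 ± 0.856 CPM untreated (-0.55 ± 0.08, edgeR adjusted p = 1.96e-06). TIMP1 measured 509, 526 and 524 CPM in 24 h libraries, inside the untreated range of 481 to 647 CPM, and was not called (-0.07 ± 0.11, edgeR adjusted p = 0.623).

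**Figure D3:**
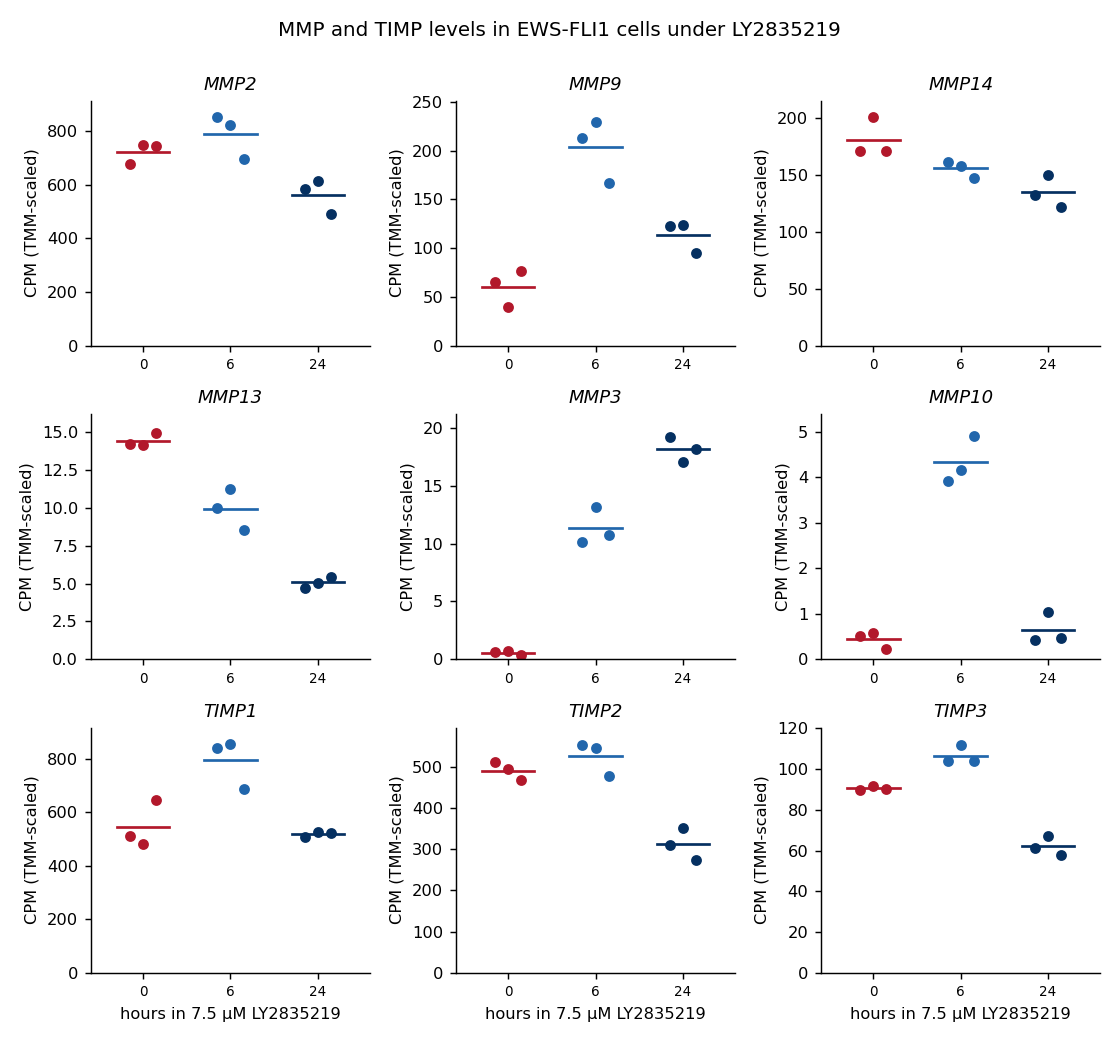
TMM-scaled CPM of the 9 tested genes (vertical axes, each from 0) in EWS-FLI1 cells after 0, 6 and 24 h in 7.5 µM LY2835219, points are libraries and lines the means of 3. MMP3 is high at both times, MMP10 and TIMP1 are high at 6 h and back near the untreated level at 24 h, and MMP13 is lowest at 24 h.

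The step between the times was tested directly. At 24 h against 6 h, 8 of the 9 genes were lower and MMP3 was higher (edgeR), where 32.6% of all genes were higher, 30.3% lower and 62.9% either. The libraries did not overlap for 8 of the 9 genes, beside 66.3% of all genes. The median log2 fold change was -0.75 for the 9 genes and 0.05 for all genes, and the median of all genes was 0.15 with upper-quartile factors and 0.31 without scaling factors. MMP10 fell 6.67-fold, to 0.646 ± 0.347 CPM at 24 h, against 4.33 ± 0.513 CPM at 6 h (-2.74 ± 0.59, edgeR adjusted p = 0.000291). TIMP3 (1.72-fold), TIMP2 (1.68-fold) and TIMP1 (1.53-fold) were all lower at 24 h, with log2 fold changes of -0.78 ± 0.08, -0.75 ± 0.07 and -0.61 ± 0.11. MMP13 was 1.96-fold lower (-0.97 ± 0.20), MMP9 1.79-fold (-0.84 ± 0.20) and MMP2 1.40-fold (-0.49 ± 0.09), each without overlap, and limma on the TPM scales called none of these 3. MMP14 was called lower (-0.21 ± 0.08, edgeR adjusted p = 0.0213) with overlapping libraries, but was 0.05 without scaling factors and 0.10 on the log2(TPM + 1) scale, and leaving out 6 h replicate 1 (0.0683), 24 h replicate 1 (0.0646) or 24 h replicate 3 (0.142) ended the call. MMP3 was 1.60-fold higher, at 18.2 ± 1.10 CPM at 24 h and 11.3 ± 1.58 CPM at 6 h (0.68 ± 0.24, edgeR adjusted p = 0.0163), and that call was lost without 6 h replicate 1 (0.0679) or 3 (0.0534) or 24 h replicate 1 (0.0543), with length offsets and with limma on log2(TPM + 0.1).

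Within the chromosome 11 run, neighbouring genes had unlike patterns under LY2835219. MMP10 was high at 6 h, MMP1 stayed at 0 to 6 estimated counts, MMP3 was high at 6 h and 24 h, and MMP13 was lower at both. Of the 9 genes in the run, 5 (MMP1, MMP8, MMP12, MMP20 and MMP27) were under 1 CPM in every library of the series. MMP7 averaged 0.297 CPM untreated, 1.22 CPM at 6 h and 1.45 CPM at 24 h. Like MMP3, it was called higher than untreated at both times (edgeR), though at a low level. MMP3 and MMP10 are close relatives: 125 of the 31-base words of each are shared, 6.25% of the MMP3 words being shared with any other gene and 7.12% of the MMP10 words. Reads from such words are shared out between both genes by the estimation, so a part of the MMP10 counts is uncertain. MMP10 and MMP3 averaged 4.33 and 11.3 CPM at 6 h, and 0.646 and 18.2 CPM at 24 h. The part of the shared words in these values was not tested.

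**Figure D4:**
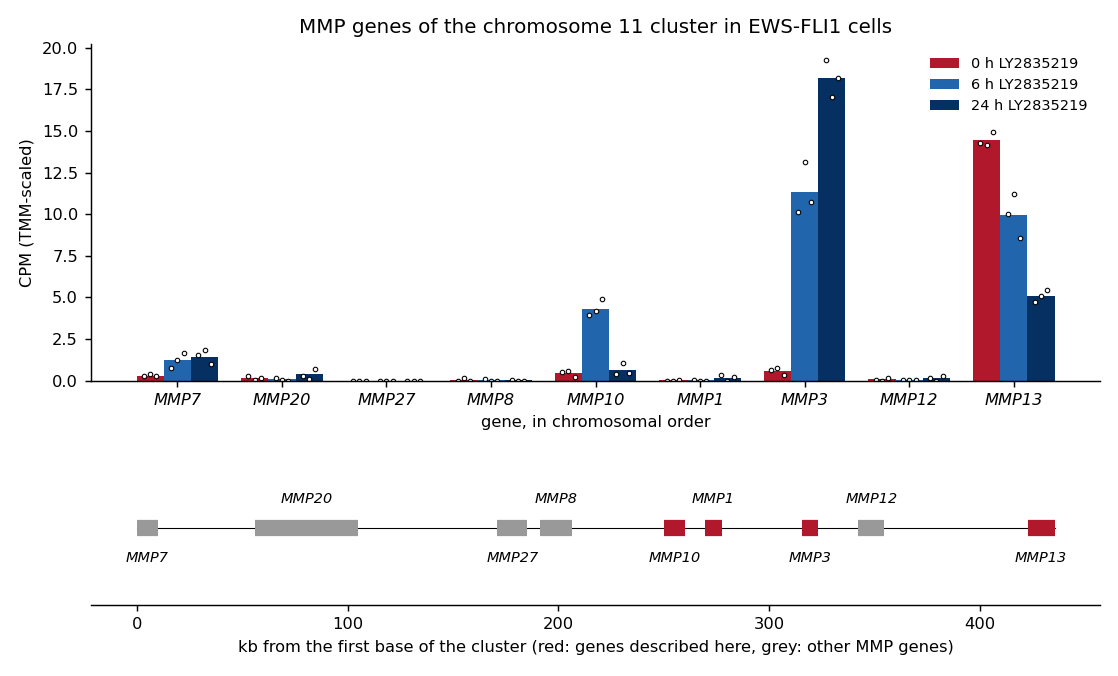
Upper panel, TMM-scaled CPM (bars are means of 3, points are libraries) of the 9 MMP genes of the chromosome 11 run in EWS-FLI1 cells after 0, 6 and 24 h of LY2835219; lower panel, their positions in kb from the first base of the run. MMP10 reaches 4.33 CPM at 6 h, MMP3 18.2 CPM at 24 h, and MMP13 is at 14.5, 9.94 and 5.08 CPM at the 3 times.

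Summed per transcript length, the 7 MMP genes reached 511 ± 9.22 TPM in EWS-FLI1 cells, 260 ± 40.6 TPM in EWS(YS37)-FLI1 cells, 382 ± 11.1 TPM in EWS-FLI1mut cells and 360 ± 13.9 TPM in mCherry cells. The 3 TIMP genes summed to 1670 ± 192 TPM in EWS-FLI1 cells, 823 ± 114 TPM in EWS(YS37)-FLI1 cells, 1796 ± 72.6 TPM in EWS-FLI1mut cells and 1024 ± 90.4 TPM in mCherry cells. The libraries of all 4 constructs thus did not overlap in the MMP sum (exact permutation p = 0.10 in each pair). However, the lowest EWS-FLI1mut library was at 370 TPM and the highest mCherry library at 368 TPM. The EWS-FLI1mut sum also includes the MMP3 TPM, which is not usable there. The TIMP sum separated EWS-FLI1 and EWS-FLI1mut cells from the others. MMP2 made up 57.0 ± 2.51% of the MMP sum in EWS-FLI1 cells, 38.4 ± 1.55% in EWS(YS37)-FLI1 cells and 53.3 ± 1.63% in mCherry cells, and TIMP1 made up 79.2% to 90.6% of the TIMP sum as a group mean, so the sums mainly follow these genes. The ratio of the MMP sum to the TIMP sum was 0.309 ± 0.0392 in EWS-FLI1 cells, 0.316 ± 0.0119 in EWS(YS37)-FLI1 cells, 0.213 ± 0.00378 in EWS-FLI1mut cells and 0.352 ± 0.0187 in mCherry cells. It was lowest in EWS-FLI1mut cells, whose libraries lay below those of every other construct (exact permutation p = 0.10 in each pair, two-sided, the smallest that 3 against 3 libraries allow). Under LY2835219 the ratio was 0.309 ± 0.0392 at 0 h, 0.262 ± 0.00649 at 6 h and 0.300 ± 0.0271 at 24 h. The 6 h libraries lay below both other times (exact permutation p = 0.10), but only narrowly. The highest 6 h library was at 0.2662, against 0.2680 for the lowest 0 h library and 0.2685 for the lowest 24 h library. RNA sums say nothing of how much enzyme was active.

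**Figure D5:**
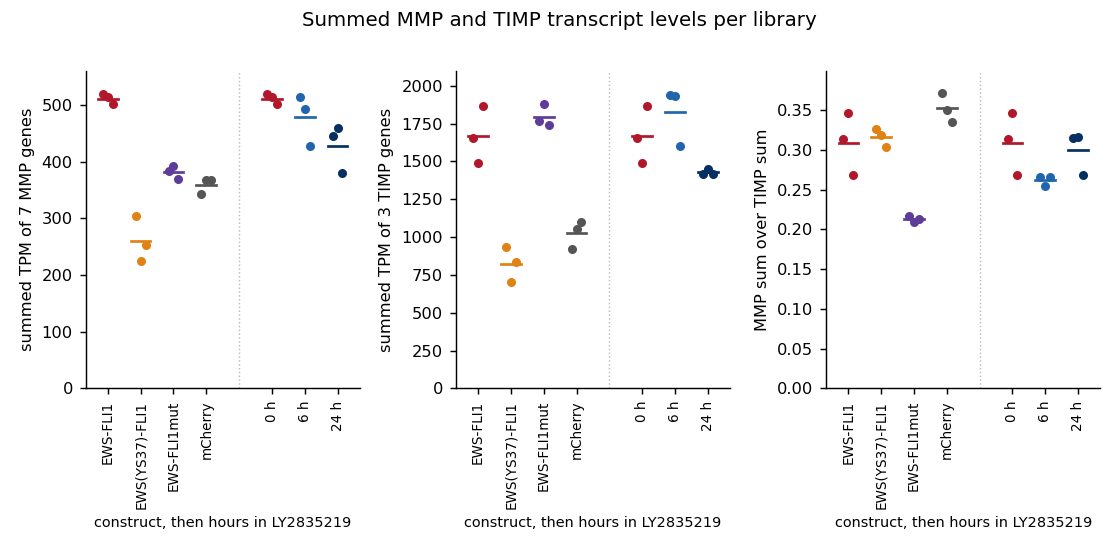
Summed TPM of the 7 MMP genes (left), of the 3 TIMP genes (middle) and their ratio (right) per library, by construct and then by hours in LY2835219 for EWS-FLI1 cells; points are libraries and lines the means of 3. The ratio is lowest in EWS-FLI1mut cells, at 0.209 to 0.216. Its mean is highest in mCherry cells, whose libraries, at 0.335 to 0.372, overlap those of EWS-FLI1 cells, at 0.268 to 0.346.

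Other genes of the same system were read from lists by function. Of 16 further MMP genes 8 could be tested, and in EWS-FLI1 cells against mCherry cells 2 were higher and 2 lower (11.1% and 9.95% of all genes). The membrane-bound MMP24 was higher, at 109 ± 4.93 CPM in EWS-FLI1 cells and 61.8 ± 3.56 CPM in mCherry cells (0.82 ± 0.06, edgeR adjusted p = 4.01e-09), as was MMP15 (0.48 ± 0.11). The 2 lower genes were MMP7 and MMP16, and MMP16 lost its call with limma on log2(TPM + 1). Of 16 matrix substrates, 14 were higher and 1 lower beside the same shares of all genes, with a median log2 fold change of 0.62 beside -0.02 for all genes, and 9 to 14 were higher over the settings tried. Among them were the collagen chain COL1A1 (0.67 ± 0.09), fibronectin FN1 (0.77 ± 0.16), the laminin chain LAMB1 (0.64 ± 0.07) and the proteoglycan BGN (2.97 ± 0.32). In EWS(YS37)-FLI1 cells 0 of the 16 substrates were higher and 3 lower, where 11.5% and 10.2% of all genes were, with COL3A1 at 13.4 ± 2.88 CPM, against 128 ± 3.94 CPM in mCherry cells (-3.26 ± 0.12), and COL1A1 (-0.74 ± 0.09). There 1 was higher and 3 lower at an unadjusted p under 0.05 (edgeR), and DESeq2 called 0 and 3. Direct comparison of EWS-FLI1 with EWS(YS37)-FLI1 cells gave 13 higher and 0 lower (14 and 1 unadjusted in edgeR, 13 and 0 in DESeq2), where 14.8% and 16.3% of all genes were. In EWS-FLI1mut cells against mCherry cells 1 was higher and 4 lower, where 3.53% and 3.62% of all genes were. Of 3 further MMP inhibitors tested, A2M, a plasma protease inhibitor, was higher in EWS-FLI1 cells at 89.3 ± 11.9 CPM, against 27.8 ± 6.39 CPM in mCherry cells (1.68 ± 0.17, edgeR adjusted p = 1.83e-07).

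Under LY2835219 the counts of the lists stand beside 31.6% of all genes higher and 33.3% lower at 6 h, and 23.3% higher and 24.6% lower at 24 h. Plasmin, the product of the plasminogen system, activates several MMP precursors. Of the 7 tested genes of that system 5 were higher and 1 lower at 6 h (3 to 5 higher over the settings tried), and 1 was higher and 4 lower at 24 h, both against untreated cells. PLAU, the urokinase activator, averaged 58.1 ± 8.97 CPM at 6 h and 12.9 ± 0.966 CPM at 24 h, against 30.98 ± 1.38 CPM untreated (0.91 ± 0.09 and -1.26 ± 0.10). Of 16 AP-1, ETS and NF-kB factors 9 were higher and 6 lower at 6 h. FOSL1, an AP-1 subunit, measured 309 ± 26.7 CPM at 6 h and 39.1 ± 3.01 CPM at 24 h, against 27.6 ± 0.129 CPM untreated (3.49 ± 0.09 at 6 h, edgeR adjusted p = 1.66e-19), and RELB and NFKB1, subunits of NF-kB, were also higher at 6 h (2.72 ± 0.10 and 1.96 ± 0.10). The 6 lower at 6 h were FOS, JUND, ETV1, ETV4, ETV5 and RUNX2. Of the called factors of at least 5 CPM, ETV1 changed most. At 24 h 5 of these factors were higher and 9 lower. Of the 9 activation and surface partners of MMPs, 4 were higher and 4 lower at 6 h, with CD44, a hyaluronan receptor that docks MMP9, at 333 ± 5.41 CPM, against 81.6 ± 12.8 CPM untreated (2.03 ± 0.09). Of the 8 further MMP genes tested, 3 were higher and 3 lower at 6 h, and 3 were higher and 2 lower at 24 h. MMP24, at 70.2 ± 2.79 CPM at 6 h and 64.3 ± 4.10 CPM at 24 h, against 109 ± 4.93 CPM untreated, was lower at both times (-0.64 ± 0.06 and -0.76 ± 0.06). MMP15, at 14.3 ± 1.48 CPM at 6 h and 27.1 ± 4.03 CPM at 24 h, against 37.2 ± 6.36 CPM untreated, was lower too (-1.38 ± 0.12 and -0.46 ± 0.11). MMP16 and MMP19 were higher at 24 h, at 108 ± 8.99 CPM against 44.2 ± 3.17 CPM untreated (1.28 ± 0.07) and 33.9 ± 1.047 CPM against 14.8 ± 2.45 CPM untreated (1.19 ± 0.11). Among 18 ADAM and ADAMTS proteases 7 were higher and 7 lower at 6 h and 5 higher and 6 lower at 24 h, shares near those of all genes, with ADAM12 higher at both (2.05 ± 0.09 and 1.96 ± 0.09).

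Over the 18 libraries, the protein-coding genes of at least 5 CPM whose log2 CPM followed each member most closely were searched among 11442 genes. The libraries fall into 6 groups, so these values mostly describe group differences. MMP2 ran with OLFML3 (Pearson r = 0.977), an olfactomedin-like matrix protein, and with LTBP1 (0.972), which holds latent TGF-beta in the matrix. MMP13 ran with CDK14 (0.945), MMP14 with OLFML2A (0.888), and MMP9 with NCKAP5L (0.970). MMP3 ran with UAP1L1 (0.959) and MMP10 with CNOT4 (0.917). Of the inhibitors, TIMP1 ran with TMEM59L (0.929) and the actin-severing protein GSN (0.923), TIMP2 with the calponin CNN2 (0.979), and TIMP3 with GNAS (0.954) and with LOXL1 (0.949), a lysyl oxidase of elastic fibres. Among the members the closest pair was MMP2 and MMP13 (0.861), followed by TIMP2 and TIMP3 (0.820), whereas MMP3 and MMP14 ran against each other (-0.577).

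Parts of some genes overlap transcripts of others, and the strandedness of the libraries is not stated. On the opposite strand, SLC12A5-AS1 covers 430 exon bases of MMP9 (18.4%), AC022966.1 covers 367 of TIMP2 (6.52%) and WTAPP1 covers 32 of MMP3 (1.56%) and 150 of MMP1 (7.61%). On the same strand, CEP295NL covers 198 exon bases of TIMP2 and AC007336.3 covers 174 of MMP2 (3.53%). Reads from these stretches may belong to either gene. MMP10, MMP13, MMP14, TIMP1 and TIMP3 have no exon overlap with another annotated gene.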

How the data were processed

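RNA abundance was estimated by the authors with kallisto 0.46, per the submitters' processing notes, which also name CASAVA and hg38; the transcript set, index options and strandedness are not given in the sources used here. The deposited tables, per the file headers, hold estimated counts and TPM for 188753 transcripts per library, and the transcript lengths are deposited in the same tables. Transcript IDs were matched to GENCODE 29 (169797 matched; 2.59% to 2.74% of counts per library were left out) and summed per gene; sums were rounded.

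Libraries were grouped by the labels, and 9 comparisons were tested in 1 edgeR 4.0.16 quasi-likelihood fit of 18 libraries (TMM, filterByExpr with a minimum count of 10, 16786 genes, Benjamini-Hochberg over all genes, threshold 0.05). The SE of a log2 fold change is its size over the square root of F. The fit was tested on simulated data in which far fewer genes changed than were called under LY2835219. That test does not cover changes as broad as those. Alternatives used other scalings, no filter, length offsets, a replicate block, only 6 libraries, limma 3.58.1 on log2(TPM + 1) and log2(TPM + 0.1), DESeq2 1.42.0, and each of the 6 libraries of a comparison left out in turn. Totals of 16261034 to 20270637 make counting error small except for MMP1, MMP3, MMP10 and MMP13. Named beside the 10 members were, per list and comparison, up to 4 called genes of at least 5 CPM with the largest change, and the closest genes by correlation. The members and lists were chosen with earlier results of these data known.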

Additional observations from a re-analysis of the deposited data

Results flagged for a closer look

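MMP2, MMP13 and TIMP1 moved in opposite directions against mCherry in cells with different fusions. MMP2 had a log2 fold change of 0.56 in EWS-FLI1 cells and -0.90 in EWS(YS37)-FLI1 cells, and the direct comparison of these cells gave 1.45 ± 0.09 (edgeR adjusted p = 3.51e-11). For MMP13 these values were 1.06 and -1.57, with 2.63 ± 0.21 in the direct comparison (edgeR adjusted p = 2.26e-09). TIMP1 had 0.70 in EWS-FLI1 cells and -0.37 in EWS(YS37)-FLI1 cells, 1.07 ± 0.11 directly (edgeR adjusted p = 1.10e-07). TIMP1 had 0.81 in EWS-FLI1mut cells, and EWS(YS37)-FLI1 against EWS-FLI1mut cells gave -1.18 ± 0.11 (edgeR adjusted p = 3.67e-08). The changes against mCherry share the 3 mCherry libraries, and the TIMP1 call in EWS(YS37)-FLI1 cells was lost without mCherry replicate 2 or 3 or EWS(YS37)-FLI1 replicate 2. FLI1 averaged 247 ± 16.3 CPM in EWS-FLI1 cells, 1019 ± 44.0 CPM in EWS(YS37)-FLI1 cells and 642 ± 19.9 CPM in EWS-FLI1mut cells, and its part in these differences was not tested.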

How the results depend on the processing

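Of 53 calls for the 9 genes over 9 comparisons, 35 held their direction and side of the threshold under the 10 settings that left out no library of the groups compared and with each of the 6 libraries of the comparison left out in turn (MMP10 had no value with only 6 libraries in 7 comparisons), and 18 were lost at least once. TIMP3 at 6 h and MMP14 at 24 h against 6 h also turned direction. In the order of no scaling factors, log2(TPM + 1) and log2(TPM + 0.1), the 6 h changes were -0.12, -0.26 and -0.26 for MMP2, -0.15, -0.28 and -0.28 for TIMP2, and -0.0105, -0.140 and -0.145 for TIMP3, and MMP14 at 24 h against 6 h was 0.0470, 0.102 and 0.103. Of values that were not called, TIMP2 in EWS(YS37)-FLI1 against EWS-FLI1mut cells was -0.0272, -0.0729 and -0.0733 in that order; MMP3 there was -1.18 with length offsets, -0.75 and -1.04 on the TPM scales; MMP14 in EWS-FLI1 against EWS-FLI1mut cells was -0.0544 and -0.0547 on the TPM scales, and MMP10 there -0.00662 without scaling factors.

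With length offsets, log2(TPM + 1) and log2(TPM + 0.1), fewer of all genes were called: 1701, 1679 and 1544 for EWS-FLI1 against mCherry, 360, 384 and 345 for EWS-FLI1mut against mCherry, 1961, 1907 and 1849 for EWS(YS37)-FLI1 against mCherry, 1262, 1276 and 1122 for EWS-FLI1 against EWS-FLI1mut, 3000, 2990 and 2901 for EWS-FLI1 against EWS(YS37)-FLI1, and 2570, 2735 and 2584 for EWS(YS37)-FLI1 against EWS-FLI1mut. Members called lower in EWS-FLI1 against mCherry were 1 without the filter, in DESeq2 and with the replicate block (MMP3), and the block moved no other count of members by over 1.5 times. Libraries of the same number did not deviate together (r from -0.0377 to 0.0621 over the comparisons, the own number being the closest in 12 of 27 cases), so the numbers do not pair the libraries. Members called higher in EWS-FLI1mut against mCherry were 2 without scaling factors, without the filter and with only 6 libraries. In EWS-FLI1 against EWS-FLI1mut 0 were lower with only 6 libraries and 3 higher on log2(TPM + 0.1). In EWS-FLI1 against EWS(YS37)-FLI1 0 were lower with length offsets and on both TPM scales, where in EWS(YS37)-FLI1 against EWS-FLI1mut 0 were higher. At 6 h 1 was lower with length offsets, and 3 were higher and 4 lower on both TPM scales; at 24 h against 6 h 4 were lower on both TPM scales, and 0 higher with length offsets and on log2(TPM + 0.1). The cause of these shifts was not tested.

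With 1 library left out, members called lower ranged from 0 to 1 in EWS-FLI1 against mCherry and against EWS-FLI1mut and from 0 to 2 at 6 h, and members called higher from 1 to 2 in EWS-FLI1mut against mCherry and from 0 to 1 in EWS(YS37)-FLI1 against EWS-FLI1mut and at 24 h against 6 h. All genes called in EWS-FLI1mut against mCherry ranged from 667 to 1012. Uncalled values that crossed 0 were MMP3 (-0.0662 to 0.68) and MMP13 (-0.15 to 0.38) in EWS-FLI1mut and TIMP3 (-0.00234 to 0.14) in EWS(YS37)-FLI1 against mCherry, MMP10 in EWS-FLI1 against EWS-FLI1mut (-0.21 to 0.51), MMP3 (-0.16 to 0.50) and TIMP2 (-0.00497 to 0.0727) in EWS(YS37)-FLI1 against EWS-FLI1mut, and TIMP1 at 24 h (-0.18 to 0.0409). Depth limited MMP1, untested at 24 estimated counts in all 18 libraries, and MMP10, at 316. It also limited MMP3 in untreated EWS-FLI1 libraries, at 6 to 14 each, and MMP13 in EWS(YS37)-FLI1 libraries, at 38 to 47 each. The MMP3 log2 fold change at 24 h against untreated cells ranged from 3.37 to 5.15 over the alternatives and was called in each.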

Other observations

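Within TIMP2, the share of estimated counts given to the transcript TIMP2-203 varied widely between mCherry libraries. It was 45.8%, 35.7% and 46.9% in EWS-FLI1 libraries, 45.6%, 24.1% and 24.6% in EWS-FLI1mut libraries, and 0.675%, 23.9% and 49.4% in mCherry libraries. Of the summed counts it was 43.4% at 6 h and 43.2% at 24 h of LY2835219 and 43.0% in EWS(YS37)-FLI1 cells. Only 1.33% of its 31-base words are found in no other transcript of the gene. The gene total of TIMP2 did not show this spread, at 391, 372 and 385 CPM in mCherry libraries.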
